A study of Mus musculus with 20 samples.

Results

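The SLAM family receptors and their signalling partners were followed across 12 groups of mouse CD4+ T cells. The members were the receptors Slamf1, Cd84, Ly9, Slamf6, Slamf7 and Cd48, the adaptor Sh2d1a (SAP) and the kinase Fyn. They were found by gene symbol on the array, which gave 8 of 24325 named genes, read by 12 of 39429 probes. Each gene was represented by a lead probe, the one with the highest mean log2 intensity over the 20 arrays, and all 8 lead probes could be tested.

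SLAM receptors are surface proteins of blood cells. Most of them bind a copy of themselves on a neighbouring cell, so that a T cell and a B cell can engage each other through the same receptor. CD48 differs, since it is held in the membrane by a lipid anchor, has no tail inside the cell and binds CD2 and CD244. The tails of most other receptors carry a short tyrosine motif named ITSM, to which the small adaptor SAP can bind. SAP brings the Src-family kinase Fyn to the receptor, and without SAP the same motifs can recruit phosphatases such as SHP-1 (Ptpn6), SHP-2 (Ptpn11) and SHIP-1 (Inpp5d). The pathway is best known in follicles, where SAP is needed for stable contact between T cells and germinal centre B cells and for interleukin-4 from follicular helper cells.

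All cells came from Foxp3-GFP reporter mice of the strain B6.Cg-Foxp3<tm1Mal>, aged 8 to 14 weeks and of both sexes, with cells of 8 to 15 animals pooled for a sample. Peripheral lymph nodes (pLN) were taken 12 or 25 days after a subcutaneous injection of the protein antigen KLH in alum. At each day naive T cells (GFP-, PD1-, GL7-), TFH cells (follicular helper, GFP-, PD1hi, GL7+), Treg cells (regulatory, GFP+, PD1-, GL7-) and TFR cells (follicular regulatory, GFP+, PD1hi) were sorted. Peyer's patches (PP), for which the labels name no immunisation, gave TFH GL7+, TFH GL7-, Treg and TFR cells. The d12 and PP groups had 2 arrays each and the d25 groups 1 each, and none of the 8 members was used for sorting. All GFP+ groups carried the reporter allele, as did the GFP- groups, so no wild-type cells were compared.

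The 20 one-colour arrays lay on 5 slides of 4. Slides 1 and 2 held the first and second d12 replicates, slide 3 the d25 samples, and slides 4 and 5 the first and second PP replicates. Between 43.0% and 58.0% of the probes were detected on an array, and no probe was saturated. The median local background was 268 on the array of pLN d12 TFR replicate 2 and 24 to 78 on the other 19. Markers, among them Pdcd1 and Foxp3 on whose products the cells were sorted, followed the labels. The summed intensity of 5 follicular genes was 296700 to 606000 on TFH arrays and 20130 to 21350 on naive arrays, and that of 5 Treg genes was 58480 to 109500 on Treg and TFR arrays and 963 to 1225 on naive arrays. The list of 13 B-cell genes summed to 59690 to 414800 on slide 4, with all 13 detected, and to 7513 to 43510 on the other 16 arrays, with 7 to 13 detected. Of its defining members, Ebf1 was detected on all 4 arrays of slide 4 and on 2 of the 16 others. Slide 4 also held the highest sums of 7 epithelial genes, 2602 to 6943 against 253 to 2264. SLAM receptors are known on B cells too, so calls of the members in PP are given with and without slide 4, and those of other genes in part. In bulk samples fewer expressing cells and less RNA per cell cannot be told apart.

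The 6 receptor genes sit side by side on mouse chromosome 1. On the mm9 build their outermost probes span chr1:173518744-173873679, 355 kb, in the order Ly9, Slamf7, Cd48, Slamf1, Cd84, Slamf6, with Ly9 and Slamf7 on the minus strand and the others on the plus strand. The array holds 11 probes in that interval, 10 of them for these receptors and 1 without a gene symbol that was detected on 1 array. Sh2d1a was read by a probe at chrX:39875116-39875175 and Fyn by a probe at chr10:39284572-39284631, both on the plus strand.

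For Slamf6 and Ly9, 1 of the probes holds a match to the SAP docking motif in an open reading frame. Those probes follow with the codons that match the ITSM in capitals, beside a Cd48 probe that also has an open frame, for the receptor without a tail. The match was read from the probe sequence alone, and the probes were not placed on exons or splice forms here. The other Slamf6 and Ly9 probes and the Cd48 probe shown hold no such match, and matches in probes of the remaining members were not listed. Over the whole array, 0.304% of the probes have an ITSM match in an open reading frame.
Slamf6 (chr1:173871767-173871826, plus strand): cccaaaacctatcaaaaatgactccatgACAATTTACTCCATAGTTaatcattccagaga
Ly9 (chr1:173523555-173523614, minus strand): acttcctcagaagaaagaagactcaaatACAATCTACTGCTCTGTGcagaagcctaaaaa
Cd48 (chr1:173629721-173629780, plus strand): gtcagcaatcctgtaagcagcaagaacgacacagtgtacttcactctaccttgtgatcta
The Slamf6 probe is the lead probe of its gene. For Ly9 and Cd48 the sequences belong to the second probes, which like the lead probes were called in none of the 15 comparisons.

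SAP and Fyn were the members that moved most clearly. Over the 12 groups, 2 of the 8 lead probes, Sh2d1a and Fyn, differed by the F test (p under 0.001 and adjusted p under 0.005), beside 17.3% of all 22264 probes tested. With slide treated as a random block the count was 5, and leaving out slide 4 made it 0. The adjusted p was 0.000111 for Sh2d1a and 0.000692 for Fyn. The second Slamf6 probe also passed, with an adjusted p of 0.00374. The group means of Sh2d1a spanned 2.43 log2 units, more than those of 82.7% of the tested probes, whereas those of the Cd84 lead probe spanned 0.58, more than 11.4% of them.

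**Figure D1:**
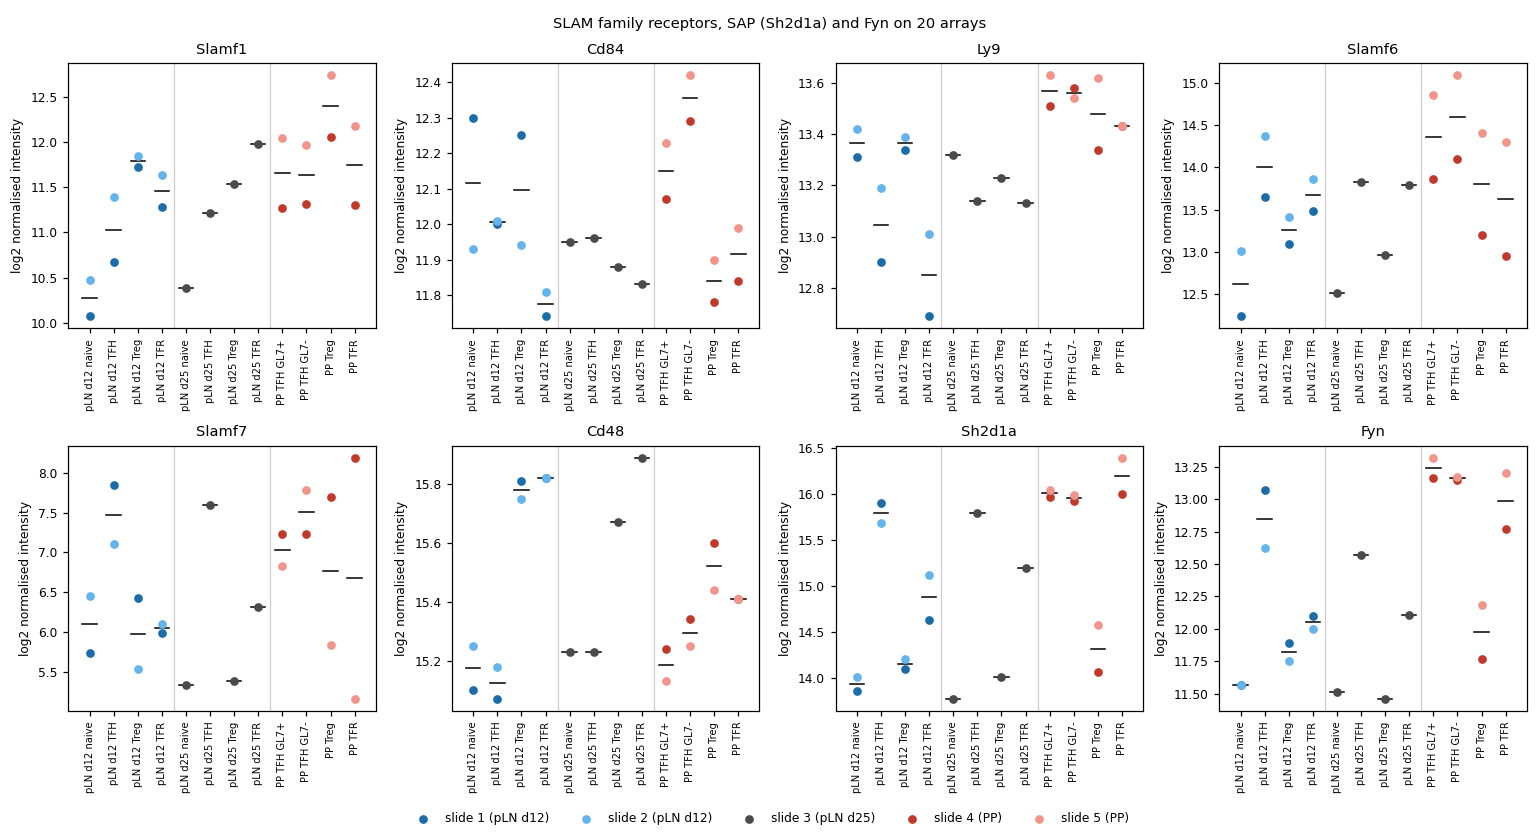
Log2 normalised intensity of the lead probe of each of the 8 members (y axis, a separate scale in each panel) in the 12 groups (x axis), one point for each of 20 arrays, coloured by slide, with the group mean as a bar. Sh2d1a and Fyn were high in all TFH groups and in PP TFR cells, Cd48 was highest in pLN Treg and TFR cells, and Cd84 and Ly9 covered narrow ranges.

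SAP is the adaptor that couples receptors it binds to Fyn. In pLN at d12 its normalised intensity was 14857 and 16524 on the naive arrays, 61585 and 52800 on the TFH arrays, 17599 and 18765 on the Treg arrays, and 25323 and 35495 on the TFR arrays. TFH lay above all other d12 groups, TFR lay between, and naive and Treg arrays did not overlap although they lay close. At d25 the values were 13998 in naive, 56908 in TFH, 16551 in Treg and 37689 in TFR cells. In PP they were 64102 and 68060 in TFH GL7+, 62475 and 65284 in TFH GL7-, 17088 and 24288 in Treg, and 65601 and 86319 in TFR cells. PP TFR cells thus stood at the top of the order, with PP TFH GL7+ next. Of the 11 steps between neighbours in the order of group means, 1 exceeded the spread of the fit, that from pLN d12 TFR down to PP Treg (0.56 on the log2 scale, limit 0.51).

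Fyn, the kinase that SAP carries to the receptors, followed a like order. On the d12 arrays it read 3033 and 3030 in naive, 8604 and 6278 in TFH, 3801 and 3446 in Treg, and 4404 and 4097 in TFR cells. At d25 the values were 2906, 6075, 2823 and 4435 in the same order of cell types. In PP it read 9151 and 10219 in TFH GL7+, 9114 and 9234 in TFH GL7-, 3484 and 4633 in Treg, and 6979 and 9421 in TFR cells. The PP TFR arrays overlapped both PP TFH groups and lay above every Treg array. No step between neighbours in the order exceeded the spread. Across the 12 group means Fyn and Sh2d1a correlated with r = 0.96 (Pearson, a description over groups that share slides).

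TFH cells of the pLN were compared with naive cells to ask what marks helper cells of the follicle. Sh2d1a and Fyn rose, 2 of 8 lead probes, where 14.7% of all probes were called (adjusted p under 0.05 and at least 1 log2 unit). Sh2d1a was 3.64-fold higher (log2 difference 1.86 ± 0.23, SE, adjusted p = 0.000255, limma) and Fyn 2.42-fold higher (1.28 ± 0.21, adjusted p = 0.00177), a call lost when the fit held the compared groups only (adjusted p = 0.0767, 2.33e-05 to 0.0767 over 14 alternatives). Slamf6 is a receptor that engages itself and signals through SAP. Its lead probe read 4844 and 8254 in naive and 12845 and 21110 in TFH cells, and its second probe 2824 and 2043 in naive and 14837 and 9984 in TFH cells, so neither probe overlapped between the groups. The difference was 2.60-fold by the lead probe (1.38 ± 0.59, adjusted p = 0.143) and 5.07-fold by the second probe (2.34 ± 0.42, adjusted p = 0.0026), so the call rests on the second probe. Fitted within slides, the lead probe passed as well (1.38, adjusted p = 0.000113, against 7.67e-05 to 0.514 over its 14 alternatives). TFH exceeded naive by 1.41 and 1.35 on slides 1 and 2 (d25, slide 3: 1.32). Cd48 and Cd84 differed by -0.05 (95% CI -0.36 to 0.26) and -0.11 (-0.51 to 0.29). The median of the 8 members was 1.02 and that of all tested probes -0.09.

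At d25 the same contrast had 1 array a group, assumed to vary like the others. Sh2d1a rose again (2.02 ± 0.32, adjusted p = 0.00291), 1 of 8 lead probes beside 8.72% of all probes, and so did Slamf6 by its second probe (2.40 ± 0.59, adjusted p = 0.0296), a call lost without slide 4 and without the filter on dim probes (highest adjusted p 0.0741). Fyn differed by 1.06 ± 0.30 (adjusted p = 0.0567), and the count went from 1 to 3 with slide as a block, adding Fyn and the Slamf6 lead probe. Averaged over the 4 cell types, d25 and d12 did not differ in any of the 8 (0 called with limma, 0 at an unadjusted p under 0.05, background 0.0404%), with differences between -0.24 for Slamf7 and 0.14 for Slamf1. Day and slide cannot be told apart in that contrast.

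**Figure D2:**
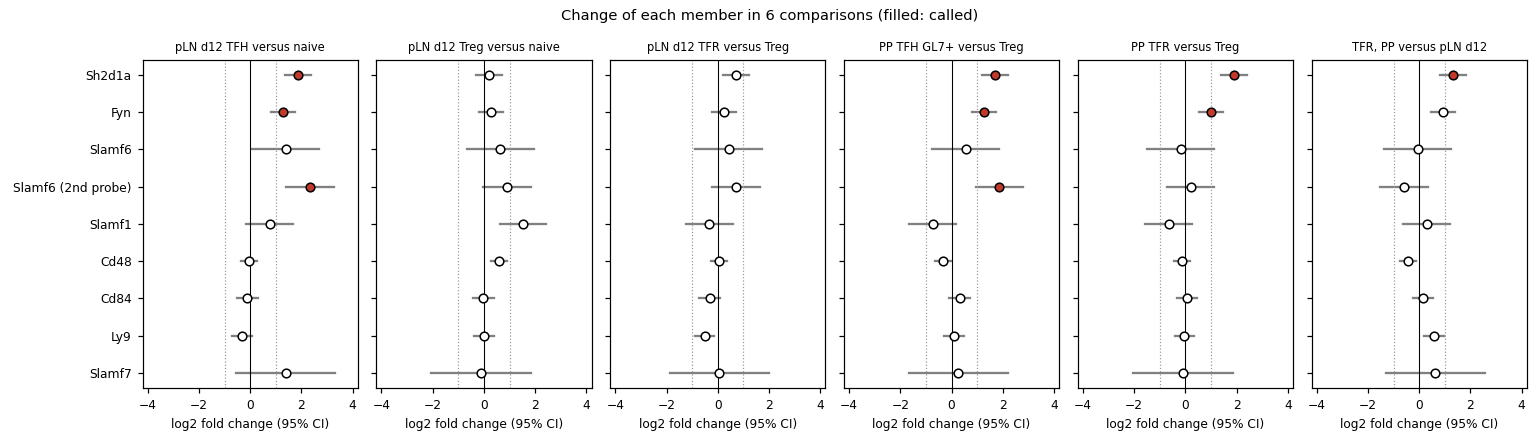
Log2 fold change with its 95% confidence interval (x axis) for the 8 members and the second Slamf6 probe (y axis) in 6 comparisons; dotted lines mark 1 log2 unit and filled points were called. Sh2d1a and Fyn were called in TFH against naive cells, and in PP TFH and PP TFR against PP Treg cells, while every Cd48, Cd84 and Ly9 point lay within 1 log2 unit of 0.

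Treg cells, sorted as PD1- and GL7-, were set against naive cells to describe regulatory cells outside the follicular gate. None of the 8 lead probes was called with limma (2 at an unadjusted p under 0.05), beside 3.76% of all probes. The largest difference was that of Slamf1, and the smallest unadjusted p belonged to Cd48. Slamf1, the founding member of the family, read 1074 and 1415 in naive and 3369 and 3685 in Treg cells, a 2.86-fold difference (1.52 ± 0.41, adjusted p = 0.0801). At d25 it read 1329 in naive, 2364 in TFH, 2957 in Treg and 4033 in TFR cells. The d12 groups did not overlap, and Treg exceeded naive by 1.65 and 1.38 on slides 1 and 2 (d25, slide 3: 1.15). The d12 difference was called with slide as a block (adjusted p = 0.000224, range over its 14 alternatives 0.000113 to 0.425).

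Cd48, the lipid-anchored ligand of CD2 and CD244, read 35162 and 38935 in naive and 57461 and 55047 in Treg cells. The 1.52-fold difference passed the adjusted p (0.60 ± 0.14; 0.0373) but not the fold threshold. Its second probe gave 0.66 ± 0.15 (adjusted p = 0.0315). The pLN TFR arrays both read 58034, since the probe had the same rank on them, and TFH arrays read 34295 and 37163. The Foxp3+ and Foxp3- groups of the pLN did not overlap in Cd48, d25 included (51987 and 60576 against 38499 and 38329). How many of all tested probes split these groups was not counted, so this is a description. In PP the gap was smaller: Treg read 49835 and 44565, TFR 43433 on both arrays, and the 4 TFH arrays 35743 to 41597.

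TFR cells were compared with Treg cells to ask what regulatory cells share with the follicle. In pLN at d12 none of the 8 was called with limma (2 at an unadjusted p under 0.05, Sh2d1a and Ly9), beside 8.35% of all probes. Sh2d1a was 1.65-fold higher in TFR cells (0.72 ± 0.23, adjusted p = 0.0709), and Fyn differed by 0.23 ± 0.21 (adjusted p = 0.628). At d25 Sh2d1a differed by 1.19 ± 0.32 (adjusted p = 0.0648), with 0 of 8 called by limma, 1 at an unadjusted p under 0.05 and 5.3% of all probes called; with slide as a block it was called (adjusted p = 0.0097, range over 9 alternatives 0.00373 to 0.204). Ly9, a receptor of most lymphocytes, read 10181 and 10945 in naive, 7638 and 9369 in TFH, 10355 and 10747 in Treg and 6626 and 8247 in TFR cells, with TFR below Treg on both slides and a TFR minus Treg difference of -0.51 ± 0.17 (adjusted p = 0.0877) and below the fold threshold.

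In PP the same contrast gave 2 calls of 8, beside 9.25% of all probes. Sh2d1a rose 3.69-fold from Treg to TFR cells (1.89 ± 0.23, adjusted p = 0.000489) and Fyn 2.02-fold (1.01 ± 0.21, adjusted p = 0.0117). Both slides showed both changes: Sh2d1a by 1.94 and 1.83 and Fyn by 1.00 and 1.02 on slides 4 and 5. Without slide 4 Sh2d1a stayed called (1.83, adjusted p = 0.0311; 1.1e-05 to 0.111 over 14 alternatives), and Fyn was as large but not called (1.02, adjusted p = 0.104; range 0.000199 to 0.251). Without PP Treg replicate 1 the Fyn value was 0.81, and without PP TFR replicate 2 it was 0.80, both under the fold threshold.

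The receptors gave no call between PP TFR and Treg cells. Slamf6 read 9437 and 21812 in PP Treg and 7914 and 20105 in PP TFR cells by the lead probe, a difference of -0.19 ± 0.59 (adjusted p = 0.934). By the second probe it read 5358 and 3281 in Treg and 5522 and 4211 in TFR cells, a difference of 0.20 ± 0.42 (adjusted p = 0.882). The TFH GL7+ arrays read 17952 and 13149 by that probe, above every PP Treg and TFR array. Slamf1 differed by -0.65 ± 0.41 between TFR and Treg (adjusted p = 0.421), with 4231 against 2530 on slide 4 and 6827 against 4634 on slide 5, and the groups overlapped. Without slide 4 it was -0.56.

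PP TFH GL7+ cells compared with PP Treg cells gave the same 2 lead probes, Sh2d1a (3.24-fold, 1.70 ± 0.23, adjusted p = 0.000733) and Fyn (2.41-fold, 1.27 ± 0.21, adjusted p = 0.00296), beside 9.87% of all probes. This comparison and the previous one share the PP Treg arrays. With the compared groups only both calls were lost (adjusted p = 0.0686 for Sh2d1a, limma). On slide 5 alone the Sh2d1a gap was 1.49. Slamf6 rose by its second probe (3.66-fold, 1.87 ± 0.42, adjusted p = 0.0139) and not by its lead probe (0.55 ± 0.59, adjusted p = 0.698). Without slide 4, Fyn was 1.14 (adjusted p = 0.0731; 3.83e-05 to 0.0995 over 14 alternatives) and the second Slamf6 probe 2.0 (adjusted p = 0.139; 8.47e-06 to 0.139 over 13), both no longer called. The Slamf6 call was also lost without PP TFH GL7+ replicate 1 (1.65) and without PP Treg replicate 2 (1.52).

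TFR cells were also set directly against TFH cells. In pLN at d12 none of the 8 was called with limma (3 at an unadjusted p under 0.05), beside 5.01% of all probes. Sh2d1a was lower in TFR cells by -0.93 ± 0.23 (adjusted p = 0.0404), short of the fold threshold, Fyn by -0.79 ± 0.21 (adjusted p = 0.0614), and Cd48 higher by 0.70 ± 0.14 (adjusted p = 0.014). Without pLN d12 TFH replicate 2, Fyn was called (-1.02, adjusted p = 0.0469; 0.00174 to 0.417 over 14 alternatives). In PP, TFR and TFH GL7+ cells had no member called with limma (0 at an unadjusted p under 0.05; background 3.44%). There Sh2d1a differed by 0.19 ± 0.23, with a 95% CI of -0.32 to 0.70, and Fyn by -0.25 ± 0.21. The largest gap was that of the second Slamf6 probe, -1.67 ± 0.42 (adjusted p = 0.0583), seen as -1.70 and -1.64 on slides 4 and 5 and called with slide as a block (adjusted p = 0.000137; 5.61e-05 to 0.452 over 13 alternatives). Without slide 4 it was -1.64 (adjusted p = 0.452), with 0 members called.

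**Figure D3:**
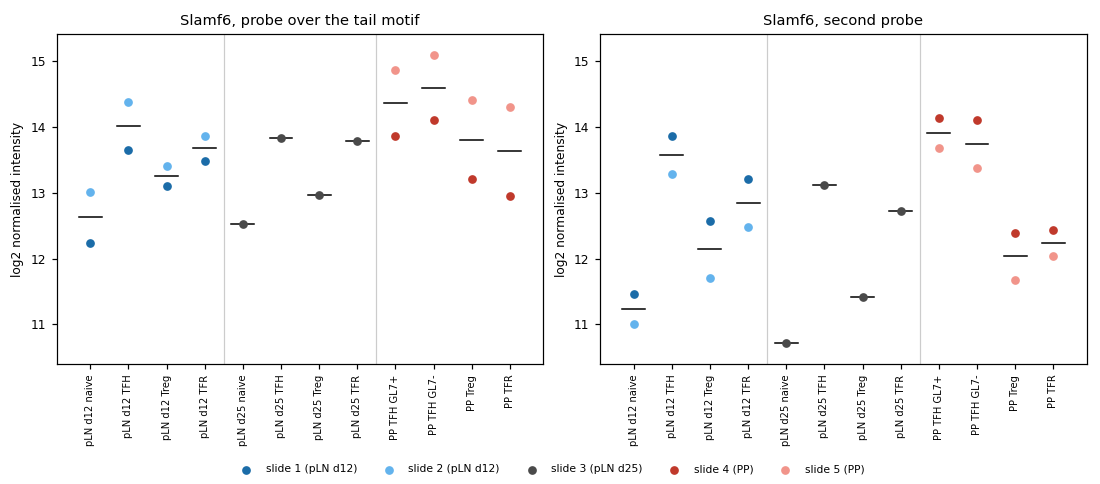
Log2 normalised intensity (y axis, the same range in both panels) of the Slamf6 lead probe and of the second Slamf6 probe in the 12 groups (x axis), coloured by slide, with group means as bars. The lead probe is titled as lying over the tail motif because its sequence holds the ITSM match, but it was not placed on the transcript. Within each slide both probes placed TFH above naive and Treg cells, while the lead probe was higher and the second probe lower on slide 2 than on slide 1 and on slide 5 than on slide 4.

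The Slamf6 probes shifted in opposite directions between slides. From replicate 1 to replicate 2 of the same group, the lead probe was higher in 8 of 8 pairs, by 0.31 to 0.77 in pLN d12 and by 0.99 to 1.35 in PP. The second probe was lower in 8 of 8, by -0.86 to -0.47 and by -0.73 to -0.39. Slides 1 and 4 were made from 50 ng of RNA and the others from 40 ng, so RNA input and slide cannot be told apart. Slamf1 was higher in replicate 2 in 8 of 8 pairs too (0.13 to 0.87), and so was the second Cd84 probe (0.82 to 1.97), and 40.7% of all tested probes moved one way in all 8 pairs. For the Slamf6 lead probe the SE of a d12 difference was 0.59.

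GL7 is carried by activated germinal centre lymphocytes, and PP TFH cells were split by it. The paper found both GL7+ and GL7- follicular T cells inside PP germinal centres, so GL7 is no exclusive marker of that location. None of the 8 members was called between TFH GL7+ and GL7- cells (0 with limma, 0 at an unadjusted p under 0.05, 0 with the methods' t-test), beside 0.00898% of all probes. The 95% interval was -0.46 to 0.56 for Sh2d1a and -0.39 to 0.55 for Fyn, and the lead Slamf6 probe was lower in GL7+ cells by -0.24 and -0.23 on slides 4 and 5 (interval -1.55 to 1.07). The count was 0 without slide 4 too.

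The tissues were compared to describe cells of one type in different places. In TFR cells Sh2d1a was 2.51-fold higher in PP than in pLN d12 (1.33 ± 0.23, adjusted p = 0.0043), 1 call of 8 beside 11.1% of all probes. Scaling to the 75th percentile alone brought it to 0.90 (adjusted p = 0.0409; 0.00308 to 0.117 over 13 alternatives), under the fold threshold. Fyn differed by 0.93 ± 0.21 (adjusted p = 0.0155) and was called without slide 4 (1.15, adjusted p = 0.037; 0.0082 to 0.161). Ly9 differed by 0.58 ± 0.17 (adjusted p = 0.044), and by 0.58 without slide 4. Marker sums moved with the tissue in TFR cells: the 5 follicular genes summed to 150700 and 139500 in pLN d12 and 470000 and 392900 in PP, and the 4 naive genes to 114600 and 97990 in pLN d12 and 25610 and 16410 in PP. Their part in the Sh2d1a difference was not tested. Treg cells gave 0 calls with limma (0 at an unadjusted p under 0.05; background 2.24%) and TFH GL7+ cells 0 (1 at an unadjusted p under 0.05; background 4.54%). In those comparisons Sh2d1a differed by 0.16 ± 0.23 and 0.21 ± 0.23. Each slide held 1 tissue, so tissue and slide cannot be separated except as a random block, under which the Sh2d1a call in TFR cells held (adjusted p = 0.0255). It held without slide 4 as well (1.53, adjusted p = 0.0251).

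The change from Treg to TFR was then compared between tissues in 1 contrast. No member was called with limma (2 at an unadjusted p under 0.05, Sh2d1a and Fyn; background 0.548%). The step was larger in PP by 1.16 ± 0.32 for Sh2d1a (adjusted p = 0.207) and by 0.78 ± 0.30 for Fyn (adjusted p = 0.456). Slide by slide the Sh2d1a step was 0.52 and 0.92 in pLN d12, 1.19 in pLN d25, and 1.94 and 1.83 in PP. The PP and pLN values did not overlap, and the share of all probes with such a gap was not counted. With slide as a block Sh2d1a was called (adjusted p = 0.0271; 0.0119 to 0.632 over 18 alternatives) and Fyn, with an adjusted p of 0.0472 (0.0289 to 0.853 over 18), stayed under the fold threshold. Without slide 4 the Sh2d1a value was 1.11 (adjusted p = 0.575).

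Slamf7 and Cd84 were the members with least to report. Slamf7, known from natural killer and plasma cells, was detected on 13 of 20 arrays and read 35.8 to 292. It was not well above background in naive cells. The pLN d12 TFH arrays read 229 and 139 against 53.4 and 87.4 on the naive arrays. The log2 difference was 1.38 ± 0.87 (adjusted p = 0.344, limma). Slamf7 was higher in TFH than in naive cells by 2.1 on slide 1 and by 0.67 on slide 2. The plasma-cell list summed to 87590 and 13550 on those TFH arrays and to 26550 and 28430 on the naive arrays. The highest Slamf7 value lay on the slide 4 PP TFR array, 292 against 35.8 on slide 5. On those PP TFR arrays the plasma-cell sums were 90880 and 2201 and the B-cell sums 414800 and 27860. Their part in the Slamf7 values was not tested. Cd84, a receptor of B and T cells that supports their lasting contact, read 3411 to 5490 over all 20 arrays. It was highest in PP TFH GL7- cells (5002 and 5490), and its second probe, much dimmer, gave no call in any comparison and differed from it in sign between PP and pLN Treg cells (1.08 against -0.25).

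Other genes of the pathway came from fixed lists. Among 5 further SLAM receptors and SAP-type adaptors, Slamf8 was detected on 2 arrays, Sh2d1b1 on 1 and Sh2d1b2 (both adaptors akin to SAP) on 0, and 2 were tested. Slamf9 was at the floor of 20 on all naive arrays and on every pLN Treg array, and read 156 and 97.6 in pLN d12 TFR and 144 in pLN d25 TFR cells. In PP it was above the floor on the slide 4 Treg and TFR arrays alone (47 and 58.2). pLN d12 TFR was the one group with both arrays detected, and the probe was tested through that group, so its difference from Treg (at least 2.91-fold) is given as a description. The 9 myeloid genes, a lineage in which Slamf9 is better known, summed to 1701 and 1933 on the pLN d12 Treg and 4587 and 3565 on the TFR arrays. On the pLN TFH arrays they summed to 9344 and 7138 at d12 and 5699 at d25. Slamf9 read 55.6 and 48.2 on those d12 TFH arrays and 80.2 at d25, the first alone detected. The part of the myeloid genes was not tested. Of the CD48 partners, Cd244 was higher in PP than in pLN Treg cells (1.19 ± 0.27, adjusted p = 0.0496), a call that 8 of 12 alternatives lost, each of the 4 left-out replicates among them (1.00 to 1.38). Cd2, the main CD48 partner in mouse T cells, was called in 0 of 15 comparisons with limma (3 at an unadjusted p under 0.05).

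The list of 17 genes downstream of SAP and Fyn was tested in full. In pLN d12 TFH against naive cells 4 rose and 0 fell, with a median of 0.31 against -0.09 for all probes, of which 14.7% were called. With the compared groups only the count was 1, Ptpn11. They were Ptpn11, Nfkb1, Malt1 and Il4. Ptpn11, the phosphatase SHP-2, read 10046 and 11130 in naive and 107070 and 82240 in TFH cells, 3.15 ± 0.23 on the log2 scale (adjusted p = 1.2e-05). Il4, whose production in TFH cells depends on SAP, read 114 and 763 in naive and 37251 and 41531 in TFH cells (7.06 ± 0.66, adjusted p = 4.84e-05). Malt1, a scaffold and protease of the pathway to NF-kB, differed by 1.46 ± 0.21 (adjusted p = 0.000714), and Nfkb1 by 1.59 ± 0.33 (adjusted p = 0.006), which was 1.15 and not called without pLN d12 TFH replicate 1 and 0.90 ± 0.92 by a second Nfkb1 probe. The other phosphatases of the list, Ptpn6 and Inpp5d, were not called in any comparison.

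The list was read in TFR cells next. From PP Treg to PP TFR, 3 of 17 rose and 0 fell, where 9.25% of all probes were called, and with the compared groups only the count was 0. The 3 were Ptpn11 (2.19 ± 0.23, adjusted p = 0.00023), Malt1 (1.54 ± 0.21, adjusted p = 0.00101) and Il4 (4.70 ± 0.66, adjusted p = 0.0012). In pLN d12 the single call was Il4, 668 and 555 in Treg against 2697 and 4169 in TFR cells (2.46 ± 0.66, adjusted p = 0.0381), lost without any 1 of those 4 arrays (2.15 to 2.78). Malt1 read 3218 and 2961 in pLN d12 Treg and 3191 and 3523 in pLN d12 TFR cells, but 13959 and 15746 in PP TFR cells, on the level of PP TFH GL7+ cells (15918 and 13045). Against TFH cells, Ptpn11 was lower in TFR cells of both tissues, by -2.52 ± 0.23 in pLN d12 (adjusted p = 0.000171) and by -1.60 ± 0.23 in PP (adjusted p = 0.0031). Without slide 4 the PP TFR against Treg call was kept by Ptpn11 (2.09) and lost by Malt1 (1.58) and Il4 (5.16), and the PP TFR against TFH call of Ptpn11 was lost (-1.52). Between tissues, TFR cells of PP had 3 of the 17 higher (Ptpn11, Malt1 and Il4) and 1 lower, Dok2, an adaptor that damps Ras signalling (-1.28 ± 0.19, adjusted p = 0.00204). Of all probes 11.1% were called there. The Il4 call (2.82) was lost with slide as a random block (adjusted p = 0.113, 0.00504 to 0.136 over 12 alternatives) and without any 1 of the 4 arrays, the Ptpn11 call with 75th-percentile scaling alone (0.99), and the Ptpn11 and Dok2 calls with the compared groups only.

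**Figure D4:**
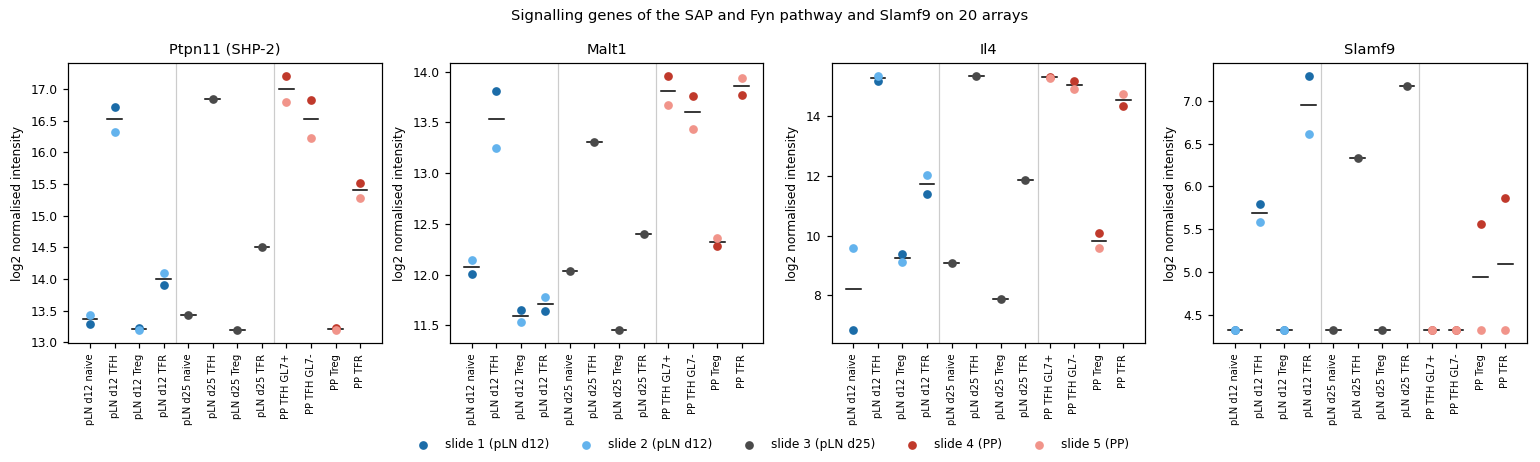
Log2 normalised intensity (y axis, a separate scale in each panel) of Ptpn11, Malt1, Il4 and Slamf9 in the 12 groups (x axis), coloured by slide, with group means as bars. Ptpn11, Malt1 and Il4 were high in every TFH group, PP TFR cells reached the Malt1 level of TFH cells and not their Ptpn11 level, and Slamf9 was highest in pLN TFR cells.

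Genes that set the activity of Src kinases gave no calls. Of 6 controllers (Csk, Pag1, Ptprc, Ptpn22, Cbl and Cblb), 0 were called in any of the 15 comparisons with limma. Of all probes 0.00898% to 14.7% were called in a comparison. An unadjusted p under 0.05 was found in 16 of the 90 tests, and for 254 to 6619 of all 22264 probes in a comparison. In TFR cells of PP against pLN d12 the median of the 6 was 0.80, against 0 for all probes. Of the 7 other Src-family kinases, 4 were tested, and Yes1, Src and Lyn were too dim. Lck, the T cell kinase next to Fyn in the antigen receptor pathway, was not called in any comparison. Fgr, a kinase of myeloid cells, was at least 1.39-fold higher in pLN d25 TFH than naive cells (adjusted p = 0.0368) and at least 1.70-fold higher in pLN d25 TFR than Treg cells (adjusted p = 0.0345), each from 1 array a group and each lost with 75th-percentile scaling alone. The 9 myeloid genes summed to 5699 and 1124 on the d25 TFH and naive arrays and to 2916 and 1071 on the d25 TFR and Treg arrays, and their part was not tested.

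The genes with group means most like those of a member over the 12 groups were Fut8, Armcx6 and Cdk5r1 for Fyn (r = 0.994 to 0.987) and Gm19958, Cebpa and Hmox1 for Sh2d1a (r = 0.987 each). For Cd48 they were Kcnj15, Dgat2 and Kcnk7 (0.972 to 0.954), for Slamf1 Arrdc4, Abcb1a and Rabgap1l (0.939 to 0.926) and for the Slamf6 lead probe Zfp781, LOC101055804 and Rab8b (0.965 to 0.956). Ly9 was most like Smurf2, Rab18 and Klhl20 (0.972 to 0.966), Slamf7 like Wdr26, Hivep2 and Stau2 (0.941 to 0.935) and Cd84 like Chchd5, Mllt11 and Nipsnap2 (0.891 to 0.857). Ranges differed: Cebpa spanned 9.17 log2 units and Sh2d1a 2.43. Among the members, Slamf6 correlated with Sh2d1a and Fyn (r = 0.83 and 0.87), and so did the dim Slamf7 (0.82 and 0.84). Cd84, next to Slamf6 on the chromosome, gave 0.26 and 0.44. Cd48, from the same stretch, did not follow them (-0.30 and -0.40). These are descriptions over 12 groups that share slides.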

How the data were processed

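RNA of pooled, sorted CD4+ T cells was measured on 20 one-colour Agilent arrays with 4 features a probe, and the deposited scanner files give the intensity of each feature, written by Agilent Feature Extraction 10.7.3.1. The authors also deposited a table of normalised intensity values, whose median difference from the values rebuilt here was 0.0347 to 0.0362 on the log2 scale. Following the study's methods, the processed signal was averaged geometrically over features, leaving out flagged features, features outside 1.42 interquartile ranges and those with a pixel coefficient of variation above 0.5. Quantile normalisation was followed by setting the 75th percentile of every array at 1500, raising values under 20 to 20 and taking log2. The deposited annotation columns (other values: probe names, sequences and mm9 coordinates, per the file headers) named the genes; 27508 probes matched RefSeq (GRCm38.p6 table) by accession.

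A probe was detected with at least 3 features well above background and tested when detected on both arrays of 1 group or more (22264 probes). limma 3.58.1 in R 4.3.3 fitted 12 group means to all 20 arrays (8 residual degrees of freedom) with Benjamini-Hochberg adjustment over all tested probes. A call needed an adjusted p under 0.05 and 1 log2 unit. The labels give no replicate numbers, and nothing says that replicates share animals, so replicate names are arbitrary and p-values measure the spread between samples, which may be technical; replicate arrays correlated with r = 0.955 to 0.986. Precision was limited by the number of arrays. Where arrays of groups are said not to overlap, the share of all tested probes doing so was not counted, so these are descriptions. All members and their probes were named; other genes came from lists of partners, signalling genes and markers, and for likeness the 3 genes with the highest correlation. The members and lists were chosen with earlier results of these data known. No column was left unmatched (0). The fits were tested on simulated data. Alternatives were the deposited normalised table, 75th-percentile scaling alone, normexp background correction with an offset of 50, no filter, detection on at least 10 arrays, the compared groups only, slide as a fixed or random block, leaving out slide 4 or each replicate, the mean over a gene's probes and the methods' t-test.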

Additional observations from a re-analysis of the deposited data

Results flagged for a closer look

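By the lead probes of Cd84, Slamf6 and Cd48, the difference between TFR and Treg cells had one sign on both pLN d12 slides and the other on both PP slides. The Cd84 difference was -0.51 and -0.13 in pLN d12 and 0.06 and 0.09 in PP, which gave 0.39 for the change in PP minus that in pLN d12 (adjusted p = 0.875, limma). For the Slamf6 lead probe it was 0.38 and 0.46 against -0.25 and -0.12, a change of -0.61 (adjusted p = 1). The second Slamf6 probe did not turn: 0.63 and 0.77 in pLN d12 and 0.04 and 0.36 in PP. For Cd48 it was 0.01 and 0.08 against -0.20 and -0.04, a change of -0.16 (adjusted p = 1). The second Cd84 and Cd48 probes did not turn in this way either. The second Cd84 probe gave 0.01 and -0.04 in pLN d12 and -0.20 and -0.54 in PP. The second Cd48 probe gave -0.20 and 0.10 in pLN d12 and -0.10 and -0.12 in PP. None of the 3 lead probes passed the test of the difference between tissues, and without PP TFR replicate 1 the Slamf6 value was 0.07. The share of all tested probes with such a turn is not given here, so the signs are a description only.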

How the results depend on the processing

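The labels carry no replicate numbers, so no fit was paired by number, and slide as a fixed block compared the samples of a slide with each other. Of 41 called differences, members and pathway genes together, 8 kept their call under every alternative run, 33 lost it under at least 1 and 0 reversed. Of 41 named differences that were not called, 13 gained a call somewhere. Each fit had 1 or 2 arrays a group, which limits all of them, and the dim Slamf7 and Slamf9 probes lie near background. The cause of the shifts was not tested.

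The number of members called moved by over 1.5 times as follows. Smaller moves, from 2 to 3, came with slide as a block and with the mean over a gene's probes for pLN d12 TFH versus naive, and with the latter for PP TFH GL7+ versus Treg. With the compared groups only, it was 1 for pLN d12 TFH versus naive (2 with all groups), 0 for PP TFR versus Treg (2), 0 for PP TFH GL7+ versus Treg (2) and 0 for PP versus pLN d12 TFR (1). With 75th-percentile scaling alone it was 1 for PP TFR versus Treg and 0 for PP versus pLN d12 TFR. With slide as a fixed block and as a random block alike it was 1 for pLN d12 Treg versus naive (0 without), 1 for the Treg to TFR change between tissues (0), 3 for pLN d25 TFH versus naive (1) and 1 for pLN d25 TFR versus Treg (0), and with the random block it was 5 for the F test over 12 groups (2). The fixed block was not run for the F test. Normexp background correction gave 2 and 1 in the d25 comparisons of TFH and TFR, no filter gave 2 for pLN d25 TFH versus naive, and the mean over a gene's probes gave 3 and 2 there and 1 for PP TFR versus TFH GL7+ (0). Without slide 4 it was 1 for PP TFR versus Treg, 1 for PP TFH GL7+ versus Treg, 2 for PP versus pLN d12 TFR and 0 for the F test. Leaving out single replicates gave 0 to 1 for pLN d12 TFR versus TFH, 1 to 2 for PP TFR versus Treg and 1 to 2 for PP versus pLN d12 TFR.

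Some log2 differences that were not called reversed. Slamf7 between PP and pLN d12 was -0.14 in Treg (0.78 with all arrays) and -0.89 in TFR cells (0.63) without slide 4, and leaving out single replicates gave -0.14 to 1.70 and -0.89 to 2.14. Leaving out single replicates gave -0.05 to 1.16 for the Slamf6 lead probe in PP TFH GL7+ versus Treg cells, -0.05 to 1.16 in PP versus pLN d12 Treg cells and -1.28 to 0.07 in the Treg to TFR change between tissues.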
